A study of Macaca fascicularis with 64 samples.

Results

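Kidney from newborn wild-type cynomolgus monkeys (Macaca fascicularis) was compared with 6 other tissues of the same animals, and the genes that stood highest and lowest in kidney were described. The animals are labelled WT2 and WT3, both wild type at SIRT6 and both at the newborn stage. Each gave 2 repeat libraries of kidney, brain, muscle, thymus, liver, heart and lung, so that 4 kidney libraries stood against 24 libraries of other tissues, 28 of the 64 libraries of the series. The remaining newborn libraries come from animals labelled KO2 and KO3, with the genotype SIRT6 mutant, and 8 are fetal. SIRT6 is a nuclear sirtuin that acts on histones. The labels give neither the sex of the animals, their age in days nor the part of each organ taken, and do not say whether a repeat library was made from a separate piece of tissue. Tests therefore rest on n = 2 animals, with the 2 repeats of an animal and tissue averaged. Their p-values set a difference against the spread between these 2 animals within a tissue, pooled over all the tissues.

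The kidney filters blood in glomeruli, where podocytes form the last layer of the filter, and the filtrate then passes along a tubule of segments with different transport proteins. The proximal tubule takes back sugars, amino acids, phosphate and filtered protein, the thick ascending limb of the loop of Henle takes up salt without water, and the distal tubule and collecting duct adjust sodium, potassium, acid and water under hormones. The organ also makes the active form of vitamin D. In primates new nephrons stop forming around birth, so a newborn kidney holds young but complete nephrons.

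Levels are FPKM, fragments scaled to gene length and to the mapped fragments of the library, and differences are between means of log2(FPKM + 1), which understates the change of low genes. Of 28141 genes listed, 14926 had a mean of 1 FPKM or more over the 28 libraries and were tested. A gene was called highest in kidney when it was above each of the 6 other tissues and the largest of its 6 p-values from limma, adjusted by Benjamini-Hochberg over all genes tested, was under 0.05. The difference given for a gene is kidney minus the highest other tissue, with limma's standard error (SE). Kidney's values lay above those of the other tissues as a whole: the median gene was higher in kidney by 0.245 (brain), 0.511 (muscle), 0.165 (thymus), 0.545 (liver), 0.411 (heart) and 0.124 (lung) on the log2 scale. A second figure in brackets is therefore the same difference less this offset, called the difference relative to the median gene; the p-value belongs to the first.

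Of the genes tested, 402 were called highest in kidney, which is 2.69%, and 361 of them carry a symbol. In all 402 the 4 kidney libraries lay above the 24 others, a separation that 1048 of the genes tested showed (7.02%). Their differences ran from 0.83 to 10.26 with a median of 2.35, while the median over all genes tested was -0.76. A difference over 2 was seen for 256 of them, over 4 for 75 and over 6 for 14. Of the 402, 218 reached the mean of 1 FPKM only through kidney, and such a gene had to be high there, so counts within gene lists below are given with the number that passed in this way. Each count of list members called highest is to be read beside the 2.69% of all genes tested. The median kidney level of the 402 was 23.7 FPKM, 51 stood above 100 FPKM and 3 above 1000 FPKM. Together they made up 7.02 to 7.30% of the summed FPKM of a kidney library and 0.181 to 0.434% of a library of any other tissue. The same rule called 1582 genes highest in brain, 824 in thymus, 386 in liver, 238 in muscle, 179 in lung and 73 in heart. The tissue nearest to kidney was liver for 124 genes, lung for 93, brain for 64, muscle for 44, thymus for 41 and heart for 36. At the threshold stood LRRC75B, SNX8 and SH3D21 just inside (adjusted p 0.048, 0.049 and 0.049 by limma) and NFE2L3 with 2 genes without a symbol just outside (NFE2L3 adjusted p 0.053).

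**Figure D1:**
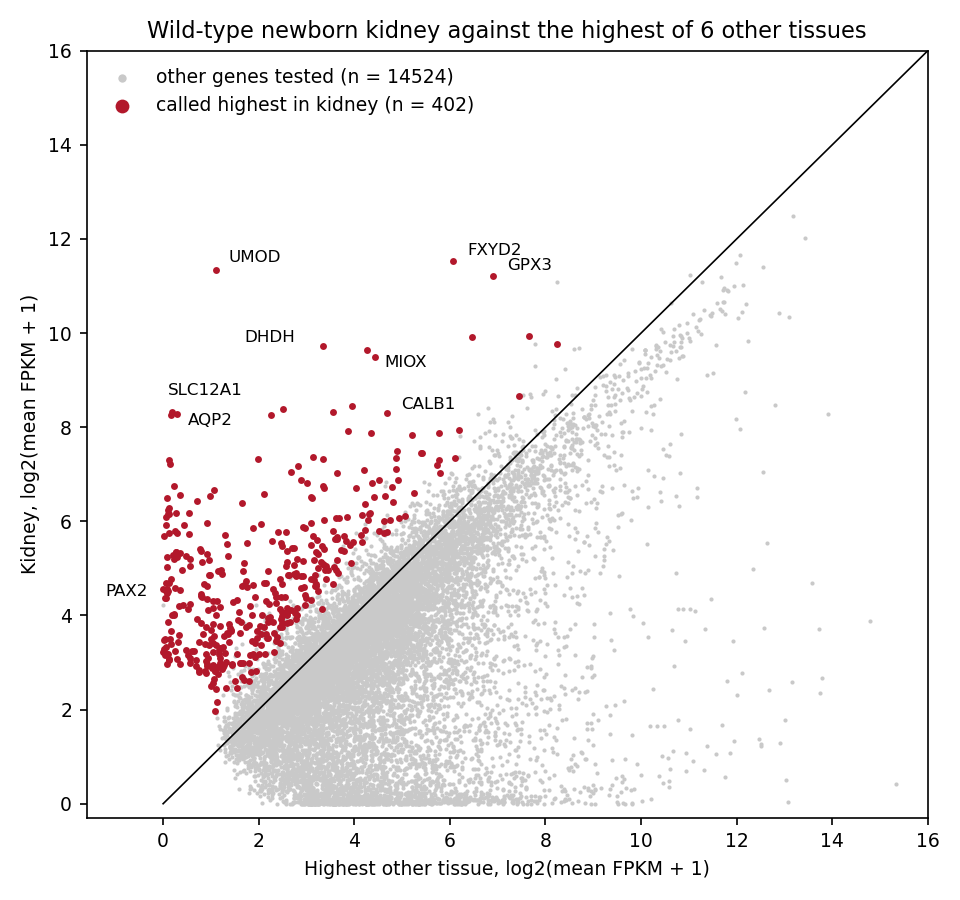
Each point is 1 of the 14926 genes tested, with log2(mean FPKM + 1) of wild-type newborn kidney on the vertical axis and that of the highest of the 6 other tissues on the horizontal axis. The 402 genes called highest in kidney are red and lie above the line of equal levels, with UMOD farthest above it.

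The tissue label was checked against defining markers. Of 29 genes that mark nephron cells, renal regulators or renal hormones, 26 were tested and 21 were called highest in kidney, beside 2.69% of all genes tested. Several, such as SLC34A1, SLC12A1, AQP2 and PAX2, reached the filter only through kidney and had to be high there. The count is therefore a description and not a test of the label. Each of proximal tubule, loop, distal tubule, principal cell, intercalated cell and podocyte had a called marker. AQP1, AVPR2, SLC4A1, SIX2 and CITED1 were tested and not called, and NPHS1, SLC26A4 and EPO were below the filter. The markers of the nephron progenitor, SIX2 and CITED1, were at 0.0713 to 1.21 FPKM and 0.238 to 0.691 FPKM, with 3 of the other tissues above kidney for each. Markers of other cells were read as well. CYP17A1 and STAR (adrenal cortex) and UPK2 (urothelium) stayed under 1 FPKM in each kidney library, UPK3A was at 2.31 to 3.45 FPKM, and the summed FPKM of the adrenal list was 5.11 to 7.11 and of the urothelium list 4.53 to 6.04. Hepatocyte genes summed to 544 to 586 FPKM in kidney, most of it from SERPINA1 and APOA1 (means of 312 and 131 FPKM), against 104000 to 119000 in liver and at most 329 in the other 5 tissues. ALB was at 23.5 and 21.7 FPKM in the WT2 libraries and 9.28 and 0.863 in the WT3 libraries, so the repeats of WT3 differed. Such levels were not confined to kidney. In WT2, ALB was at 20.6 and 19.4 FPKM in thymus, 28.3 and 42.2 in heart and 18.6 and 16.1 in lung. In WT3 the thymus repeats were at 0.165 and 18.2, and heart and lung at 0.218 to 0.720. SFTPC, a lung marker, was at 8.43 and 7.39 FPKM in WT2 and 0.103 and 0.417 in WT3, and UCP1, a brown fat marker, at 0 and 0.175 in WT2 and 5.89 and 6.61 in WT3. Red cell genes summed to 1340 to 1530 FPKM in kidney and 281 to 5620 in the other tissues. The part of these cells in the results below was not tested. In bulk tissue, fewer cells of a type and less RNA per cell cannot be told apart.

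**Figure D2:**
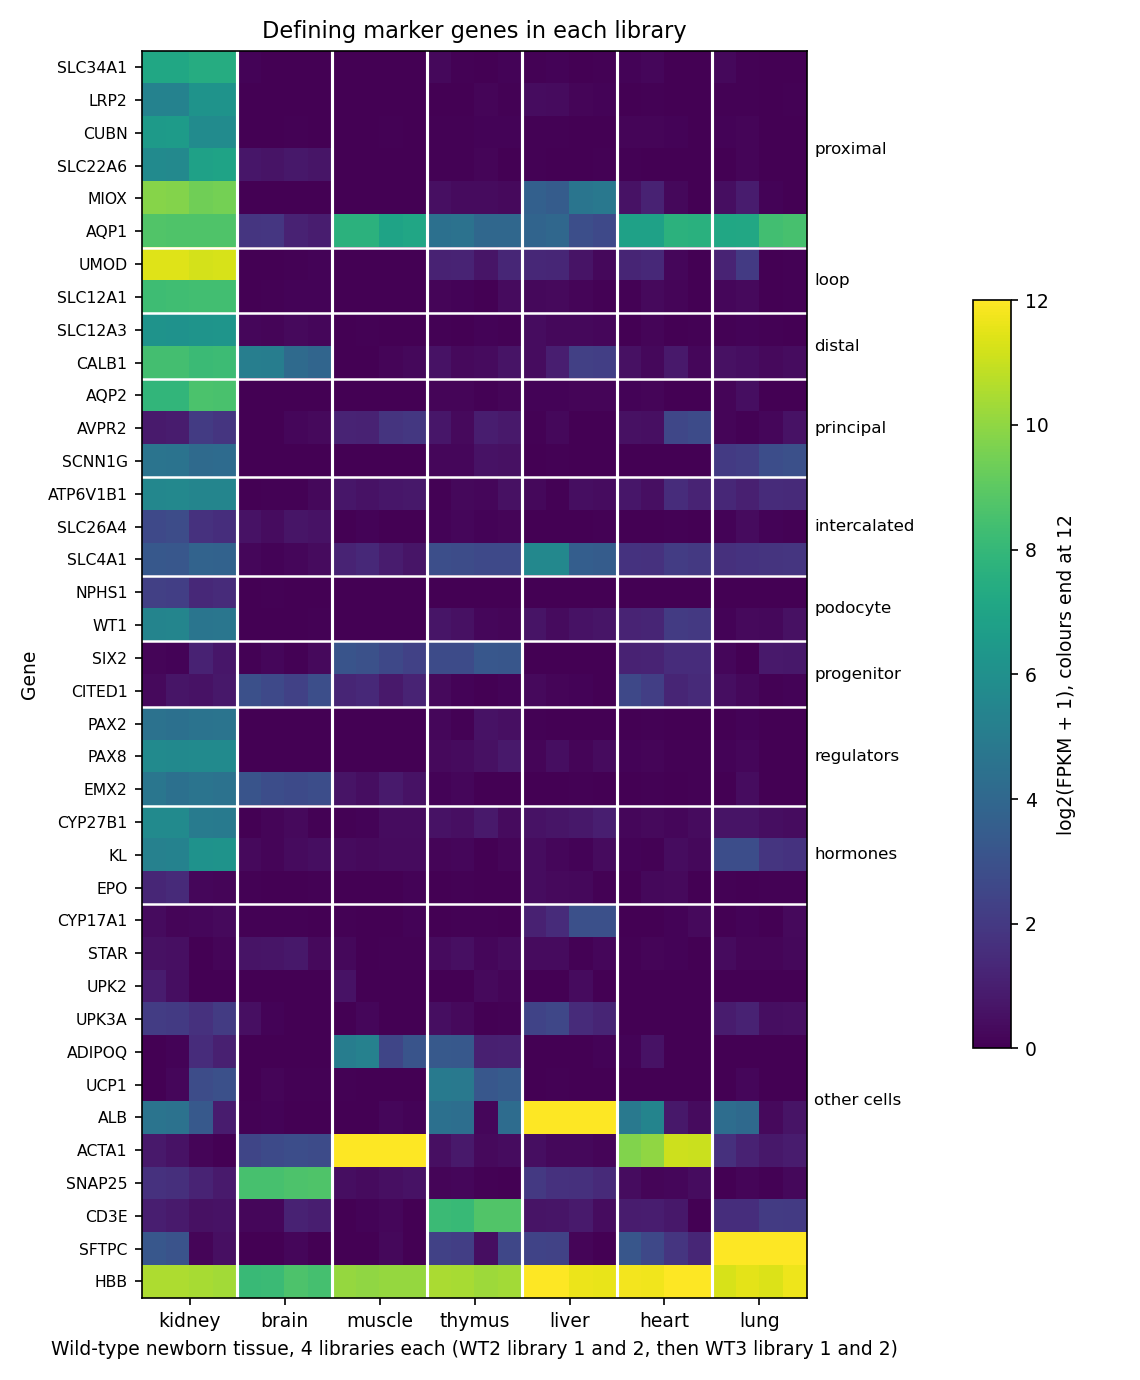
Colour gives log2(FPKM + 1) of defining markers (rows) in each of the 28 wild-type newborn libraries (columns, 4 per tissue). Most nephron markers are bright in the 4 kidney columns alone, AQP1 is bright in muscle, heart and lung too, and SIX2 and CITED1 are dark in kidney.

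Genes of the proximal tubule were the most numerous among the listed genes that were called. More of them were listed than of any other segment, so this count does not rank the segments. In a list of 39 endocytic receptors and apical or basolateral transporters, 37 were tested (18 of them through kidney alone) and 29 were called highest in kidney, with a median difference over the 37 of 2.6. SLC34A1, the sodium phosphate cotransporter of the brush border, was at 141 and 140 FPKM in WT2 and 173 and 171 FPKM in WT3, and no other library passed 0.209 FPKM. Its difference was 7.18 (7.02), SE 0.17, with a limma adjusted p of 7.8e-10. CUBN and LRP2 encode cubilin and megalin, the receptors that take filtered protein into the cell. CUBN stood at 93.3, 95.7, 54.9 and 54.2 FPKM over the kidney libraries in the order WT2 then WT3, and LRP2 at 38.7, 39.0, 70.1 and 69.6. So WT2 was the higher animal for cubilin and WT3 for megalin, and the highest other library was at 0.122 and 0.306 FPKM. The differences were 6.08 (5.67), SE 0.22, for CUBN and 5.48 (4.93), SE 0.23, for LRP2 (limma adjusted p 1.2e-08 and 3.2e-08).

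Sugar and amino acid carriers followed the same pattern. SLC5A2, the main glucose carrier of the proximal tubule, was at 87.4 and 85.3 FPKM in WT2 and 56.3 and 55.2 in WT3, against at most 0.752 FPKM elsewhere, a difference of 5.63 (5.38). SLC3A1, the heavy subunit of the cystine carrier, differed by 6.41 (5.90), and its partner SLC7A9 by 2.52. The neutral amino acid carriers SLC6A18 and SLC6A19 differed by 6.02 (5.61) and 5.56 (5.39), and the lactate carrier SLC5A12 by 5.66 (5.25). SLC9A3, the sodium-proton exchanger, differed by 5.47 (5.31) with kidney libraries at 49.2 to 56.1 FPKM. Leaving out SLC7A9, the limma adjusted p of the carriers named in this group ran from 7.8e-10 to 5e-08. At the low end of the called members stood SLC17A1 (1.3) and SLC23A1 (0.9), a vitamin C carrier.

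Not every marker of the segment stood apart. AQP1, the water channel of proximal tubule and many small vessels, was at 409 to 424 FPKM in kidney, the highest mean of the 7 tissues, but single libraries elsewhere reached 362 FPKM and the difference to lung was 0.90 (0.77), SE 0.5, limma adjusted p 1. SLC2A2, the facilitative glucose carrier that liver also uses, was at 12.2 to 35.1 FPKM in kidney and lower than in liver, where it averaged 136 FPKM (difference -2.57). SLC15A2, a peptide carrier, had its highest mean in kidney with a difference of 1.07 to brain that did not pass (limma adjusted p 1). Thymus averaged 15.9 FPKM for this gene, against 15.4 to 24.5 in kidney libraries, and the highest other library reached 31.0 FPKM. In WT2 kidney was below the highest other tissue (-0.37), and in WT3 above it (0.91).

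Organic ion carriers move drugs, urate and metabolites into and out of the tubule. Of 18 listed, 14 were tested (7 through kidney alone) and 8 were called highest in kidney, with a median difference of 1.82. SLC22A2, the organic cation carrier of the basolateral side, was at 166 and 161 FPKM in WT2 and 131 and 129 in WT3, against at most 0.232 FPKM in other libraries, a difference of 7.05 (6.81), SE 0.18, limma adjusted p 7.8e-10. SLC22A12, the urate exchanger, was about even within an animal but not between animals, at 72.3 and 70.0 FPKM in WT2 and 145 and 141 in WT3, with a difference of 6.45 (6.20). SLC22A6 and SLC22A8, the organic anion carriers, were likewise lower in WT2 (48.7 and 52.3, and 44.1 and 45.0 FPKM) than in WT3 (115 and 124, and 95.1 and 95.6 FPKM). Their differences were 5.59 (5.35) and 5.93 (5.76). SLC22A7 was higher in liver, at a mean of 90.7 FPKM against 15.1 to 40.5 in kidney libraries.

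Enzymes and peptidases of the proximal tubule split into those of kidney and those shared with liver. Of 42 listed, 37 were tested (4 through kidney alone), 14 were called highest in kidney and the median difference was 0.45. MIOX, which begins the breakdown of inositol, was at 899 and 872 FPKM in WT2 and 679 and 719 in WT3, against at most 26.8 FPKM elsewhere, a difference of 5.46 (4.92), SE 0.38, limma adjusted p 2.7e-06. The brush border peptidases DPEP1, XPNPEP2, ENPEP and MME differed by 5.90, 5.61, 3.40 and 3.37, and GGT1, which cleaves glutathione, by 3.81. Against single tissues, 36 of the 37 were called higher than in brain, thymus and heart, and 35 than in muscle and lung, but 17 were called higher and 5 lower than in liver (13 and 11 with median centring). Over all genes tested the shares called higher in kidney were 29.0% (brain), 29.8% (thymus), 29.8% (heart), 36.5% (muscle), 17.3% (lung) and 36.2% (liver), and 6.85% were called lower than in liver.

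The levels shared with liver were large. Among the 8 genes with the widest gap between the lower of these 2 tissues and the other 5 was PCK1, which starts the gluconeogenic branch from oxaloacetate. It was at 232 and 229 FPKM in the WT2 kidney and 404 and 402 in the WT3 kidney. Liver was at 165 and 164 FPKM in WT2 and 606 and 591 in WT3, while no library of the other 5 tissues passed 4.93 FPKM. Kidney minus liver was 0.48 in WT2 and -0.57 in WT3, and -0.04 (-0.59), SE 0.64, over both (limma adjusted p 0.97). HPD, an enzyme of tyrosine breakdown, gave 0.05 (limma adjusted p 0.9). G6PC, the last step of glucose release, was lower in kidney than in liver by the test, with 135 and 135 FPKM in WT2, 206 and 205 in WT3 and a liver mean of 274 (difference -0.71, limma adjusted p 0.04). AGXT, which detoxifies glyoxylate, was lower as well (-1.40, limma adjusted p 0.0026), while BHMT, a methyltransferase of homocysteine, had -1.12 and did not pass (limma adjusted p 0.06). CYP4A11 and UGT2B20 belong to families with near-identical copies and their values are uncertain. CYP4A11 was at 72.7 and 70.5 FPKM in the WT2 kidney and 369 and 390 in the WT3 kidney. With liver left out, 731 genes were called highest in kidney; of the 329 added, 108 were called higher in liver, 73 were called higher in kidney than in liver, and 148 had no call between the 2 tissues.

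**Figure D3:**
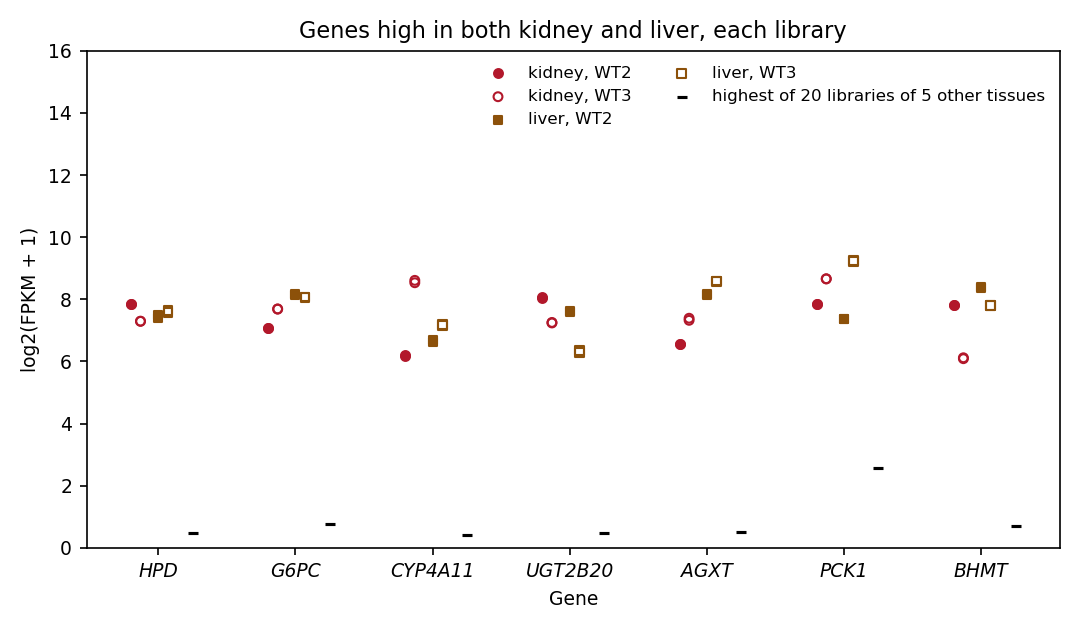
Plotted are 7 of the 8 genes with the widest gap between the lower of kidney and liver and the other 5 tissues, as log2(FPKM + 1) in each kidney library (circles) and liver library (squares), WT2 filled and WT3 open. The black dash is the highest of the 20 libraries of brain, muscle, thymus, heart and lung, and for these 7 genes it lies below every kidney and liver library.

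Loop of Henle genes held the largest differences. Of 17 listed, 15 were tested (10 through kidney alone) and 11 were called highest in kidney, with a median difference of 3.28. UMOD, the protein uromodulin that the thick ascending limb sheds into urine, was at 2728 and 2715 FPKM in WT2 and 2402 and 2479 FPKM in WT3, and no other library passed 3.09 FPKM. Its difference was 10.26 (10.09), SE 0.50, limma adjusted p 1.2e-07. SLC12A1, the sodium-potassium-chloride cotransporter that loop diuretics block, was at 308, 320, 328 and 330 FPKM against at most 0.293, a difference of 8.14 (7.6). Both genes were near level between the animals. The potassium channel KCNJ1, which works beside that cotransporter, differed by 5.45 (5.29), and BSND, a small subunit of chloride channels, by 3.28 (2.74) at 8.46 to 9.56 FPKM. The claudins of divalent cation passage, CLDN16 and CLDN19, differed by 3.78 and 3.25, and the calcium receptor CASR by 3.77. CLDN10 (difference 1.08 to brain, limma adjusted p 0.056) and EGF (0.92 to muscle, 0.29) had their highest mean in kidney and did not pass. CLDN14 was at 0.560 to 1.58 FPKM in kidney and averaged 11.6 FPKM in liver.

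In the distal convoluted and connecting tubule, 15 of 20 listed genes were tested (3 through kidney alone) and 6 were called highest in kidney, with a median difference of 0.24. SLC12A3, the thiazide-sensitive cotransporter, was at 69.8 and 67.6 FPKM in WT2 and 73.9 and 74.4 in WT3, against at most 0.326 elsewhere, a difference of 5.90 (5.36), SE 0.15, limma adjusted p 8.2e-10. FXYD2, the gamma subunit of the sodium pump, was at 3478, 3233, 2523 and 2624 FPKM, the highest level per length among the called genes. It reached 103 FPKM in 1 liver library, and its difference was 5.70 (5.15), SE 0.57. CALB1, the calcium buffer calbindin, was at 290 to 340 FPKM with brain next at a mean of 24.7, a difference of 3.72 (3.48). HSD11B2, which inactivates cortisol in aldosterone target cells, differed by 5.14 (5.02), KCNJ16 by 4.42 (4.17) and the kinase WNK4 by 3.40 (2.85). Kinases of the same pathway that many cells use were not called: WNK1 differed by 0.15 and STK39 by 0.20 (limma adjusted p 1 for each). PVALB was at 17.6 to 38.2 FPKM in kidney but averaged 231 FPKM in muscle.

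Principal cells of the collecting duct take up water and sodium. Of 17 listed genes, 16 were tested (8 through kidney alone) and 5 were called highest in kidney, with a median difference of -0.07. AQP2, the vasopressin-regulated water channel, was at 236 and 236 FPKM in WT2 and 381 and 373 in WT3 against at most 0.344 elsewhere, a difference of 8.06 (7.94), SE 0.22, limma adjusted p 1.5e-09. AVPR2, the vasopressin receptor, was low in each kidney library (0.851, 0.894, 3.21 and 2.63 FPKM) and was not highest in kidney. SCNN1G, a subunit of the epithelial sodium channel, was at 16.5 to 23.2 FPKM with lung next (difference 1.88, limma adjusted p 0.00073), whereas SCNN1A was shared with lung (56.7 to 60.02 FPKM in kidney, a difference of 0.48, limma adjusted p 1). CLDN8 differed by 4.53 and the transcription factor TFCP2L1 by 3.16. FXYD4, another regulator of the sodium pump, was uneven: 5.02 and 4.94 FPKM in WT2 and 62.7 and 75.3 in WT3, with a difference of 4.12 (3.87), SE 0.77, limma adjusted p 0.011.

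Intercalated cells secrete acid or base into the urine. Of 18 listed, 14 were tested (10 through kidney alone) and 12 were called highest in kidney, with a median difference of 3.41. RHCG, which carries ammonia, was at 29.5 to 31.1 FPKM in the 4 kidney libraries and at most 0.726 elsewhere, a difference of 4.58 (4.34), SE 0.17, limma adjusted p 1.5e-08. The proton pump subunits ATP6V1B1, ATP6V0A4, ATP6V0D2 and ATP6V1C2 differed by 4.18, 3.76, 3.20 and 1.86. The carbonic anhydrases CA12 and CA2 differed by 4.35 and 2.35. FOXI1, the transcription factor that defines these cells, was at 34.2 and 34.2 FPKM in WT2 and 9.50 and 9.46 in WT3, so the animals differed by 1.75 on the log2 scale, while no other library passed 0.143 FPKM. Its difference was 4.16 (4.03), SE 0.40, limma adjusted p 4.9e-05. Of the 12 called members, 11 were higher in WT2 than in WT3, beside 49.5% of the 402 and 42.5% of all genes tested. SLC26A4, the anion exchanger pendrin, was at 5.33, 5.89, 2.24 and 1.95 FPKM in kidney and below the filter. SLC4A1, an exchanger of intercalated and red cells, was at 8.68 to 13.2 FPKM in kidney and averaged 28.9 FPKM in liver.

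**Figure D4:**
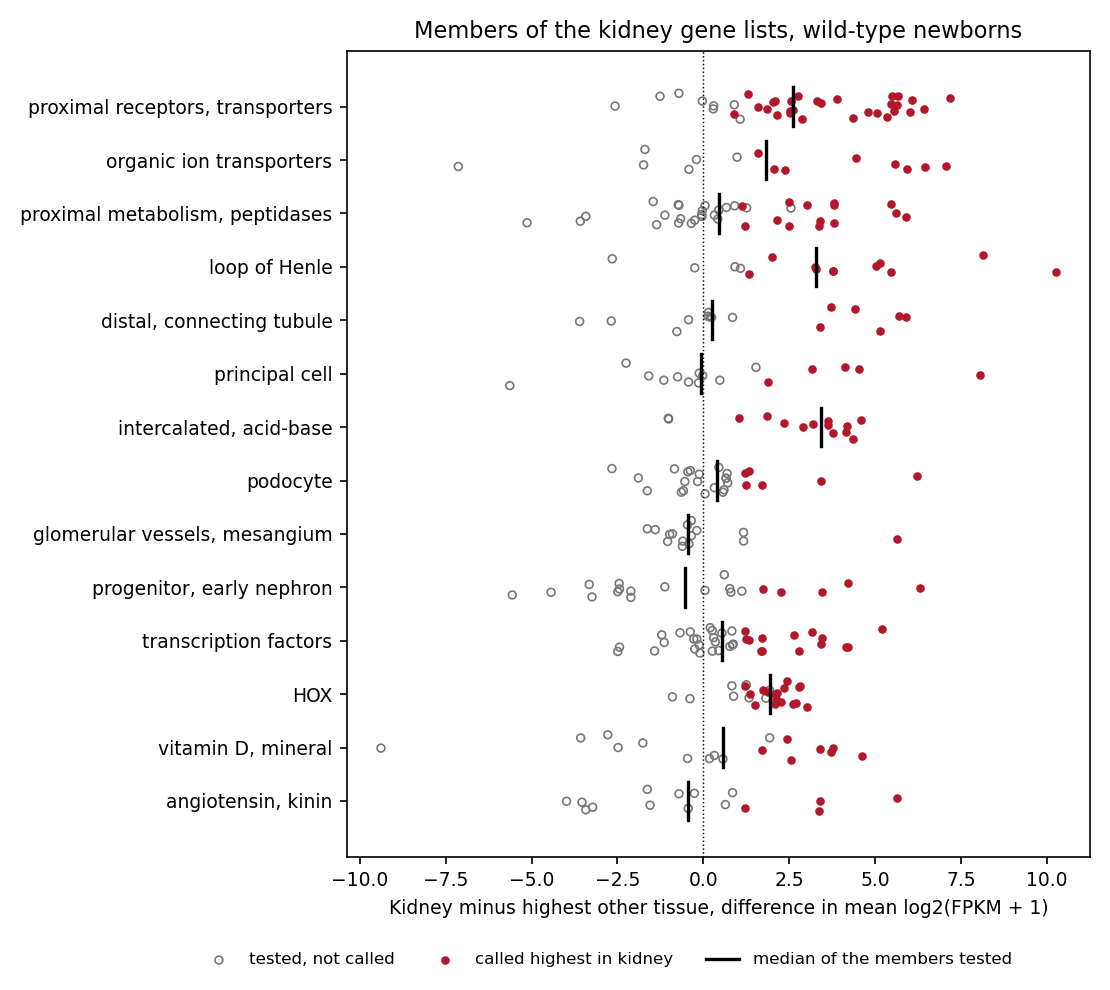
Each circle is a tested member of a kidney gene list, placed by its difference between kidney and the highest other tissue in mean log2(FPKM + 1), filled red where called highest in kidney, and the black bar is the median of the tested members. Loop and intercalated members lie mostly to the right of 3, while most podocyte, glomerular vessel and progenitor members lie between -3 and 2.5. The lists are not alike, because members tested through kidney alone had to be high there. These were 10 of 15 loop, 10 of 14 intercalated, 3 of 26 podocyte, 1 of 15 glomerular vessel and 6 of 20 progenitor members.

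Podocyte genes were divided. Of 28 listed, 26 were tested (3 through kidney alone), 6 were called highest in kidney and the median difference was 0.38. WT1, the podocyte transcription factor, was at 42.3, 43.7, 24.1 and 25.2 FPKM, with heart next at a mean of 2.23, a difference of 3.43 (3.02). Of the other called members, 4 were closer to another tissue: PLA2R1 1.71 (1.2), PTPRO 1.33 (1.08), FOXC2 1.24 (0.83) and PODXL 1.22 (1.10). PLA2R1 did not pass with quantile normalisation (adjusted p 0.064 by limma) or with median centring (0.082), and PTPRO did not with a pseudocount of 0.1 (0.075). The count of called members fell from 6 to 3 under each of these 3 settings. NPHS1, nephrin, was at 3.84, 3.65, 1.62 and 1.76 FPKM, at most 0.0607 FPKM elsewhere, and below the filter. VEGFA (124 to 157 FPKM) and ACTN4 (197 to 230 FPKM) had their highest means in kidney without passing. Against single tissues, 9 of 26 were called higher in kidney than in lung (17.3% of all genes tested), 18 of 26 than in heart (29.8%) and 24 of 26 than in thymus (29.8%). Of 15 tested genes of glomerular vessels and mesangium (1 through kidney alone), the median difference was -0.46. PDGFRB, a mesangial and pericyte receptor, was at 21.3 to 33.6 FPKM in kidney and averaged 54.3 in lung.

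Some hormone and mineral genes were called highest in kidney, with differences of unlike size. CYP27B1, which makes active vitamin D, was at 52.6 and 52.8 FPKM in WT2 and 31.3 and 29.9 in WT3 against at most 1.01, a difference of 4.61 (4.06), SE 0.24, limma adjusted p 2.4e-07. KL, the co-receptor klotho, was at 37.9, 38.3, 68.7 and 70.7 FPKM, a difference of 3.39 (3.27). The parathyroid hormone receptor PTH1R differed by 2.44 and the vitamin D receptor VDR by 1.71 (limma adjusted p 0.00094 and 0.042). Of 17 tested vitamin D and mineral genes (4 through kidney alone) 7 were called, with a median of 0.57, and of 15 tested genes of the angiotensin and kinin list (3 through kidney alone) 4 were called, with a median of -0.44. AGT, angiotensinogen, was at 79.8 to 95.7 FPKM in kidney and averaged 1370 FPKM in liver. EPO was at 1.44 and 1.68 FPKM in WT2 and 0.151 and 0.137 in WT3 and below the filter.

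Transcription factors separated kidney by several families. Of 40 renal regulators listed, 37 were tested (13 through kidney alone) and 14 were called highest in kidney, with a median difference of 0.54. With median centring or quantile normalisation 9 were called. PAX8 was even over the kidney libraries at 52.4, 50.1, 53.4 and 52.6 FPKM, against at most 0.785 elsewhere, a difference of 5.21 (5.05), SE 0.17, limma adjusted p 3.6e-09. PAX2, its close relative in the developing nephron and duct, was at 20.9 to 23.6 FPKM, a difference of 4.2 (4.04), and LHX1, which acts in the early nephron, at 9.10 to 11.4 FPKM, a difference of 3.44 (2.90). EMX2 differed by 1.70 (1.46) from brain and did not pass with a pseudocount of 0.1 (limma adjusted p 0.068). HNF4A was shared with liver (36.2 to 44.0 FPKM, difference -0.10) and POU3F3 with brain (49.8 to 59.5 FPKM, difference 0.20), and neither passed.

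HOX genes encode positional factors of the body axis. Of 39 listed, 25 were tested (17 through kidney alone), 23 of these had their highest mean in kidney and 17 were called, with a median difference of 1.93. HOXB8 was at 5.59, 4.94, 10.2 and 11.6 FPKM, and at most 0.126 elsewhere, a difference of 3.03 (2.91), SE 0.24, limma adjusted p 8.6e-06. HOXD4 was at 15.0, 15.4, 23.3 and 23.0 FPKM with muscle next at 1.92, a difference of 2.80 (2.29). HOXB9 and HOXD3 differed by 2.78 (2.27) and 2.70 (2.19). HOXA5, nearest in lung, and HOXA6, nearest in muscle, had differences of 1.93 and 1.82 that did not pass (limma adjusted p 0.064 and 0.075), and HOXC10 was higher in muscle (20.6 FPKM against 6.69 to 15.5). Of the 17 called, 15 were higher in WT3 than in WT2, beside 203 of the 402, and over all genes tested 42.5% were higher in WT2. No source used here states the strand setting of the counting, so reads of antisense genes in these clusters cannot be told apart.

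Of 31 listed regulators and markers of early nephron formation, 20 were tested (6 through kidney alone) and 12 were at a mean under 1 FPKM in kidney. For comparison, only 13645 of the 28141 genes in the data reached a mean of 1 FPKM in kidney, so a level under 1 FPKM was common. Of the 20, 5 were called, beside 2.69% of all genes tested: CDH16 (kidney cadherin, 6.29), PAX2, LHX1, HOXD11 (2.26) and HOXA11 (1.74), and the median difference was -0.54. SALL1 was at 16.4 to 18.5 FPKM, with a difference of 0.77 to liver that did not pass (limma adjusted p 0.3). CCND1 (26.5 to 33.5 FPKM) and JAG1 (14.4 to 26.4 FPKM) did not pass either.

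GPX3, the plasma glutathione peroxidase that kidney secretes, was at 1518 and 1513 FPKM in WT2 and 3240 and 3154 in WT3 against at most 142 elsewhere, a difference of 4.23 (4.11), SE 0.35, limma adjusted p 1.5e-05. Of 23 tested glutathione and xenobiotic genes (0 through kidney alone) 6 were called, with a median of 0.45; among them NQO1, a quinone reductase, differed by 2.85 and FMO1, a flavin monooxygenase, by 2.43. HMOX1 was higher in WT2 (492 and 490 FPKM) than in WT3 (195 and 186) and did not pass (difference 1.50, limma adjusted p 0.67). Of 26 tested genes of the citrate cycle and fatty acid oxidation (0 through kidney alone) 1 was called, near the 2.69% of all genes tested. It was ACADL, a long-chain acyl-CoA dehydrogenase (1.49, limma adjusted p 0.001), which did not pass with quantile normalisation (0.091) or median centring (0.19). None of 63 respiratory chain genes was called highest in kidney (2.69% of all genes tested). Of these 63, 34 were called lower than in heart (7.71% of all genes tested) and 20 lower than in muscle (8.48%), 54 in each with median centring, while 56 were called higher than in lung (17.3% of all genes tested) and 44 higher than in thymus (29.8%). Among junction and epithelial genes, CLDN2, which makes the proximal tubule leaky to cations, differed by 4.44 and MAL by 4.12. EPCAM, at 229 to 240 FPKM, differed by 2.11 from lung but did not pass with a pseudocount of 0.1 (limma adjusted p 0.34). The mean log2 levels of KRT8, KRT18, KRT19 and CDH1 were higher in liver or lung than in kidney. Of 20 tested claudin and tight junction genes (4 through kidney alone) and 18 tested epithelial genes (4 through kidney alone), 4 each were called, with medians of -0.29 and 0.15. None of 73 ribosomal protein genes was called, and their median of -0.86 was near the -0.76 of all genes tested.

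No gene was called lowest in kidney by limma (0.0% of those tested), and none was under a pseudocount of 0.1, quantile normalisation, median centring or the animal as a block. At an unadjusted p under 0.05 there were 5, against 80 with median centring and 48 with quantile normalisation, and 230 genes had their lowest mean in kidney. The 4 kidney libraries lay below the 24 others for 14 genes (0.0938%). The 5 were named after their values were seen. CCDC3 was at 0.930, 0.521, 1.05 and 0.675 FPKM against a lowest other library of 2.63, a difference of -1.23 to brain (unadjusted p 0.0056, limma adjusted p 1). ELMO1, which acts in engulfment and cell migration, was at 1.01 to 1.53 FPKM, -1.07 to heart. CAMK2D, a calmodulin kinase abundant in heart, was at 4.61 to 5.66 FPKM, -0.75 to thymus. LAPTM5, a lysosomal protein of blood cells, was at 6.96 to 10.2 FPKM. C1QB, a complement chain made by macrophages, was at 4.83 to 7.83 FPKM. Muscle was the nearest tissue for both (-0.69 and -0.79). For C1QB kidney and muscle overlapped, as 1 WT3 muscle library was at 7.71 FPKM. Beside LAPTM5 and C1QB, the summed FPKM of 17 macrophage and neutrophil genes was 122 to 274 in kidney, 217 to 231 in brain, 258 to 369 in muscle, and up to 2660 in liver. Of the 17, 13 were called lower in kidney than in liver, beside 6.85% of all genes tested. Against muscle, the nearest tissue of these 2 genes, 0 of the 17 were called lower (8.48% of all genes tested) and 2 higher (36.5%). The 0 depended on the normalisation. Median centring called 6 of the 17 lower than in muscle, beside 3441 of the 14926 genes tested. Quantile normalisation called 4 lower, beside 2260. Against brain 5 were called lower (19.2%) and 2 higher (29.0%). The part of macrophages and neutrophils in these 2 values was not tested. The same rule called 75 genes lowest in brain, 46 in thymus and 21 in liver, and 0 in muscle, heart and lung.

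Calls against each single tissue were more often higher than lower in kidney before centring. Kidney was higher than brain for 29.0% of genes tested and lower for 19.2%; than muscle for 36.5% and 8.48%; than thymus for 29.8% and 16.8%; than liver for 36.2% and 6.85%; than heart for 29.8% and 7.71%; and than lung for 17.3% and 10.1%. The share of calls that were higher in kidney changed from 81.1% to 38.5% for muscle, from 84.1% to 42.4% for liver, from 79.4% to 40.1% for heart, from 64.0% to 50.6% for thymus and from 63.1% to 50.7% for lung with median centring. With quantile normalisation it was 53.3, 56.3, 49.7, 47.0 and 50.1% in that order. For brain it was 60.1% and stayed within 10 points. Without the WT3 kidney the calls fell from 6428 to 4271 against liver and from 5599 to 3678 against heart. All 23 tested cell cycle genes were called lower than in thymus, with a median of -3.09, among them PCNA (20.1 to 24.4 FPKM, 87.1 in thymus) and MCM7. Of 34 matrix genes, 19 were called lower than in muscle, 18 than in heart and 14 than in lung, while 27 were called higher than in brain.

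The 2 wild-type kidneys were then set side by side. Repeat libraries of 1 animal differed by a median of 0.0801 (WT2) and 0.0795 (WT3) on the log2 scale, and the animals by 0.286. Within the 402 the median difference between animals was 0.39, against 0.26 over all genes tested. These 2 medians are not like for like. The scale understates differences of low genes, and the 402 were chosen for being high in kidney. The widest differences within the 402, named after their values were seen, were FXYD4 (-3.54, WT2 minus WT3), TMEM252 (-2.30) and ATP12A, a proton pump subunit (11.9 and 11.8 FPKM in WT2, 61.3 and 61.5 in WT3, -2.28). SPP1, osteopontin, was at 74.2 and 74.9 FPKM in WT2 and 196 and 198 in WT3. In the other direction stood FOXI1 (1.75), KCNE4 (1.62), DDC, which makes dopamine in the proximal tubule (234 and 244 against 81.9 and 74.9 FPKM, 1.6), SLC5A1 (1.54) and DHDH, a dihydrodiol dehydrogenase (1159 and 1154 against 532 and 532 FPKM, 1.12). With 1 animal on each side there is no test of these differences.

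The same genes were then read in the animals labelled KO2 and KO3, as a description with no test. SIRT6 itself was at 11.4, 10.6, 10.9 and 12.2 FPKM in the wild-type kidney libraries, at 4.89 and 5.59 in those labelled KO2 and at 11.4 and 12.3 in those labelled KO3, so the level was lower in only 1 of the labelled animals; a gene level does not show whether the transcript is intact. Of the 402 genes, 365 stood above each other tissue of the same animal in KO2, 352 in KO3 and 338 in both, or 84.1%; over all genes tested the share above in both was 12.6%. The median difference was 2.24 in WT2, 2.35 in WT3, 1.39 in KO2 and 1.44 in KO3. The genes were chosen for a large difference in WT2 and WT3, and that choice alone can give smaller medians in animals it did not use, so these medians and those of the lists do not compare the genotypes. For the 29 proximal transporters the medians were 3.77 and 3.82 in the wild-type animals and 1.61 and 1.75 in KO2 and KO3, with 25 of 29 above in both. For the 6 podocyte genes they were 1.68 and 1.38 against 2.52 and 2.57, and for the 17 HOX genes 2.14 and 2.5 against 1.98 and 2.02, with every member above in both. Loop genes kept 9 of 11, with medians of 3.77, 4.00, 2.99 and 3.02. Of the 402, 23 were above in neither KO animal. Those with the widest wild-type difference were SLC17A3, a urate and phosphate carrier (-0.34 in KO2, -0.93 in KO3), CYP27B1 (-0.10 and -2.76), the brush border cadherin CDHR2 (-0.25 and -0.51) and NQO1 (-0.01 and -0.59).

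**Figure D5:**
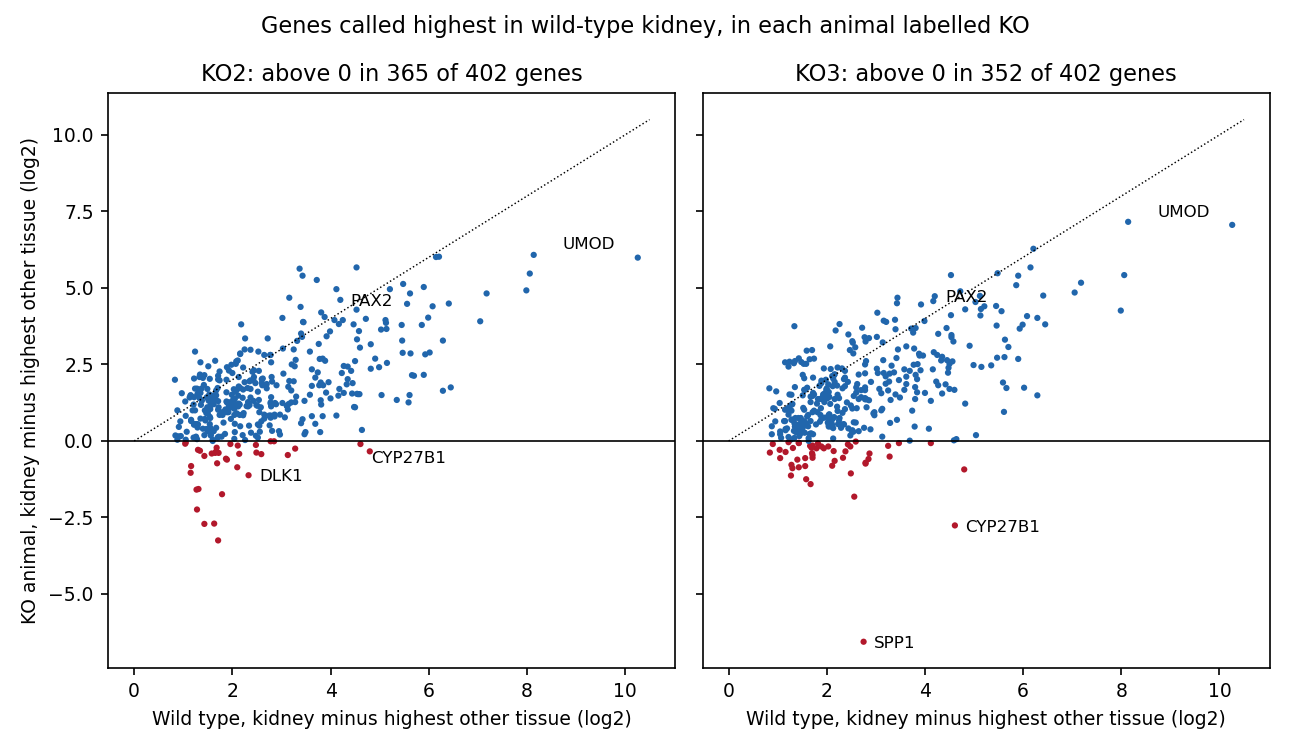
Each point is 1 of the 402 genes called highest in wild-type kidney, with the wild-type difference between kidney and the highest other tissue on the horizontal axis and the same difference in KO2 (left) or KO3 (right) on the vertical axis, both in log2(FPKM + 1). Blue points (365 in KO2, 352 in KO3) lie at or above 0, red points below it, and the dotted line marks equal differences.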

How the data were processed

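Per the labels' protocols, tissue was homogenised in liquid nitrogen, RNA was taken with TRIzol and cleaned with RNeasy, and TruSeq RNA libraries were sequenced on an Illumina HiSeq. Tools listed in the submitters' processing notes are Cufflinks 2.0.2, HISAT 0.1.6 and CASAVA, without their roles. The authors deposited FPKM per gene and library; no genome build, annotation or strand setting is given in the sources used here, and coordinates are left out. FPKM keeps no counts, the depth is unknown, and no counting interval is given. Some values listed as 0 may be failed estimates.

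Titles were read as animal, tissue and repeat. Of 11294 LOC identifiers, 721 were given the symbol of a RefSeq gene table and 10573 kept the identifier. XIST, H19, Y-linked and mitochondrial genes were not analysed here, and some genes that the counts of calls include are not reported here by name.

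Values were taken as log2(FPKM + 1) and repeats averaged, leaving 14 values of 2 animals in 7 tissues. Limma 3.58.1 in R 4.3.3 (tissue means, eBayes with a trend) was fitted to the 14926 genes with a mean of 1 FPKM or more, and tested on simulated data. An exact permutation test of 2 against 2 cannot go below p = 0.33. The same animals gave every tissue, by the titles, and deviations of an animal from the tissue mean correlated across genes at 0.171 to 0.473 over the 21 pairs of tissues. Alternatives were another pseudocount, level filter, normalisation, an animal block, libraries as units, no trend, and libraries, animals or liver left out.

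Named genes were the 24 largest differences among called genes with a symbol, a kidney mean of 5 FPKM or more and separated libraries, up to 4 called and 4 uncalled members of each kidney list (fewer of other lists), the defining markers, and the 8 genes shared with liver. Further called members are given by their difference alone. Members and lists were chosen with earlier results of these data known.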

Additional observations from a re-analysis of the deposited data

Results flagged for a closer look

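In 4 of 211 genes checked, 1 of the 4 wild-type kidney libraries lay apart from the other 3. Its gap to the nearest, as a share of the range, was above Dixon's 95% critical value. For independent values chance gives this for about 1 in 20 groups, a larger share than 4 of 211. The libraries are repeat pairs from WT2 and WT3, not independent values, so the critical value cannot decide whether a library is an outlier. A large gap share can also go with a small gap in FPKM. For CLIC5 the second WT2 library (59.2 FPKM) stood above 56.1 to 56.5 FPKM in the others, with a gap share of 0.874. For CYP27A1 the first WT3 library (12.01 FPKM) stood above 11.3 FPKM (0.941), and for EPCAM the second WT2 library (240 FPKM) above 229 to 231 FPKM (0.859). For CAMK2D the first WT2 library (4.61 FPKM) stood below 5.47 to 5.66 FPKM (0.837).

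CYP27B1 and NQO1 were above each other tissue in both wild-type kidneys and not in either kidney labelled KO, and the difference between the genotypes was not tested. The CYP27B1 difference to the highest other tissue was 5.11 in WT2, 4.10 in WT3, -0.10 in KO2 and -2.76 in KO3, with kidney means of 0.757 and 0.585 FPKM in KO2 and KO3. For NQO1 it was 2.38, 3.07, -0.01 and -0.59, with 4.56 and 2.25 FPKM.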

How the results depend on the processing

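The 402 genes called highest in kidney became 182 with a filter at 5 FPKM, 623 with no filter, 809 with libraries as replicates and 731 with liver left out, and 337 to 1251 with an animal or a library left out. The high end comes from fits of 1 animal, where the spread is between repeat libraries. Calls lowest in kidney ran from 0 to 13 with an animal or library left out. Calls against brain were 4691 with the filter at 5 FPKM and 5715 to 12048 with an animal or library left out; against muscle 4357 and 4818 to 12040; against thymus 4540 and 5393 to 11867; against liver 4188 and 4271 to 12064; against lung 2593 and 2808 to 10405; and against heart, with an animal or library left out, 3678 to 11767. Libraries as replicates gave 9987 for liver, 9274 for heart and 7507 for lung, and quantile normalisation 4063 for liver. With the animal as a replicate block 465 genes were called highest in kidney, 400 of them among the 402, and 0 lowest, and no count moved by over 1.5 times. The other settings kept the counts within that range, and 301 (quantile normalisation) and 287 (median centring) of the 402 were called again. Of the 71 named genes called highest, 65 were called in every alternative that tested them and none reversed. The exceptions included PLA2R1, PTPRO, EPCAM, ACADL and EMX2.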

Other observations

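Of the 402 genes called highest in kidney, 267 were in none of the gene lists, 226 of them with a symbol. The following were chosen after their values were seen, from among the most abundant of these. DLK1, a paternally expressed factor of fetal tissue, was at 862 and 847 FPKM in the WT2 kidney and 1090 and 1134 in the WT3 kidney, with muscle next at a mean of 201 FPKM (difference 2.33, limma adjusted p 0.01), and was above each other tissue in neither KO2 (-1.12) nor KO3 (-0.55). PDZK1IP1, a small membrane protein of the proximal tubule, was at 895 to 1028 FPKM (3.58 to lung). TCN2, which carries vitamin B12 in plasma, was at 325 to 371 FPKM, and no other library passed 15.0 FPKM (4.50). GGACT, which breaks down gamma-glutamyl products, was at 313 to 335 FPKM (4.82). GAL, the peptide galanin, was at 211 and 201 FPKM in WT2 and 124 and 114 in WT3 (4.17 to thymus).

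Outside the wild-type comparison, EPO was at 70.2 and 74.5 FPKM in the kidney libraries labelled KO3, against 1.10 and 1.40 in those labelled KO2 and 0.137 to 1.68 in the wild-type ones. In the same KO3 libraries SPP1 was at 6.35 and 8.23 FPKM, against 30.3 and 32.9 in KO2 and 74.2 to 198 in the wild-type ones.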
